A study of Rattus norvegicus with 12 samples.

Results

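The 8 genes described here encode kinases and pseudokinases whose mRNA can be induced by signals: the salt-inducible kinases Sik1 and Sik2, the serum- and glucocorticoid-inducible kinase Sgk1, the Pim kinases Pim1, Pim2 and Pim3, and the Tribbles proteins Trib1 and Trib2. Every probe of the array whose gene name is one of these 8 symbols was taken, without regard to its values. This gave 10 probes of 41012, with Trib1 and Trib2 represented by 2 probes each and every other gene by 1. The cells were PC12, a line from a rat adrenal pheochromocytoma that is used as a model of neuronal differentiation, grown in medium with bovine and horse serum. PACAP38, a neuropeptide that acts on G protein-coupled receptors, was added at 1e-07 M, and RNA was taken 5, 10 and 15 min later and again at 30, 60 and 120 min. At each time point RNA of PC12 cells (n = 6) made up 1 pool with PACAP38 and 1 pool without it, the control. Both pools were hybridized together on 2 arrays, one with PACAP38 in Cy5 and the other with PACAP38 in Cy3, so a time point is 1 replicate and allows no test of its own. The values of both arrays are given in place of an error. In pooled RNA of a culture, a change within each cell and a change in the share of cells that respond cannot be told apart.

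Many of these genes are known as immediate early or delayed early genes, which respond soon after a stimulus. Immediate early genes are transcribed from factors already present in the cell. Sik1 and Sik2 phosphorylate the Crtc coactivators of CREB and class IIa histone deacetylases and so hold back cAMP-driven transcription, and Sik1 is itself a known target of CREB. Sgk1 is a relative of Akt that acts on ion transport and Foxo factors. Pim kinases are constitutively active once translated, so that their amount is set largely by transcription and protein turnover. Tribbles proteins lack ordinary kinase activity and bring substrates such as C/EBP factors to the ubiquitin ligase Cop1.

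Of the spots of an array, 39.8 to 48.9% stood well above background for PACAP38 and 38.4 to 49.6% for the control, and no spot was saturated. All 8 chromaffin and neuroendocrine markers with a probe, among them Th, Dbh and Chga, were well above background in every channel of all 12 arrays. The 3 endothelial markers, the glial marker Gfap and the leukocyte markers Ptprc and Aif1 were well above background in no channel. Of the remaining markers, Col1a1, Pdgfra and Cd68 were well above background in every channel. The part of other cell types in the results was not tested.

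A fold is the processed signal of PACAP38 over that of the control, as the geometric mean of both arrays unless an array is named. A probe was counted as higher when its fold was at least 2 on both arrays and the scanner software's p-value for the spot, which covers only the error of that spot, was below 0.01 on both. None of the 10 probes was counted at 5 min, when 0% of all probes were, at 10 min (0.0659% of all probes) or at 15 min (0.0902%). At 30 min 1 probe was counted, that of Sik1, against 0.249% of all probes. At 60 min 4 of the 10 probes were counted, those of Sik1, Pim3 and both of Trib1, against 0.871% of all probes. At 120 min 5 of the 10 were counted, the same 4 and that of Sgk1, against 1.95% of all probes. No member probe was counted as lower at any time point, against shares of all probes of 0% (5 and 10 min), 0.0268% (15 min), 0.102% (30 min), 0.376% (60 min) and 1.53% (120 min). At these shares, 0 of 10 probes is not a result about the members. Pim1, Pim2, Sik2 and Trib2 were counted at no time point.

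**Figure D1:**
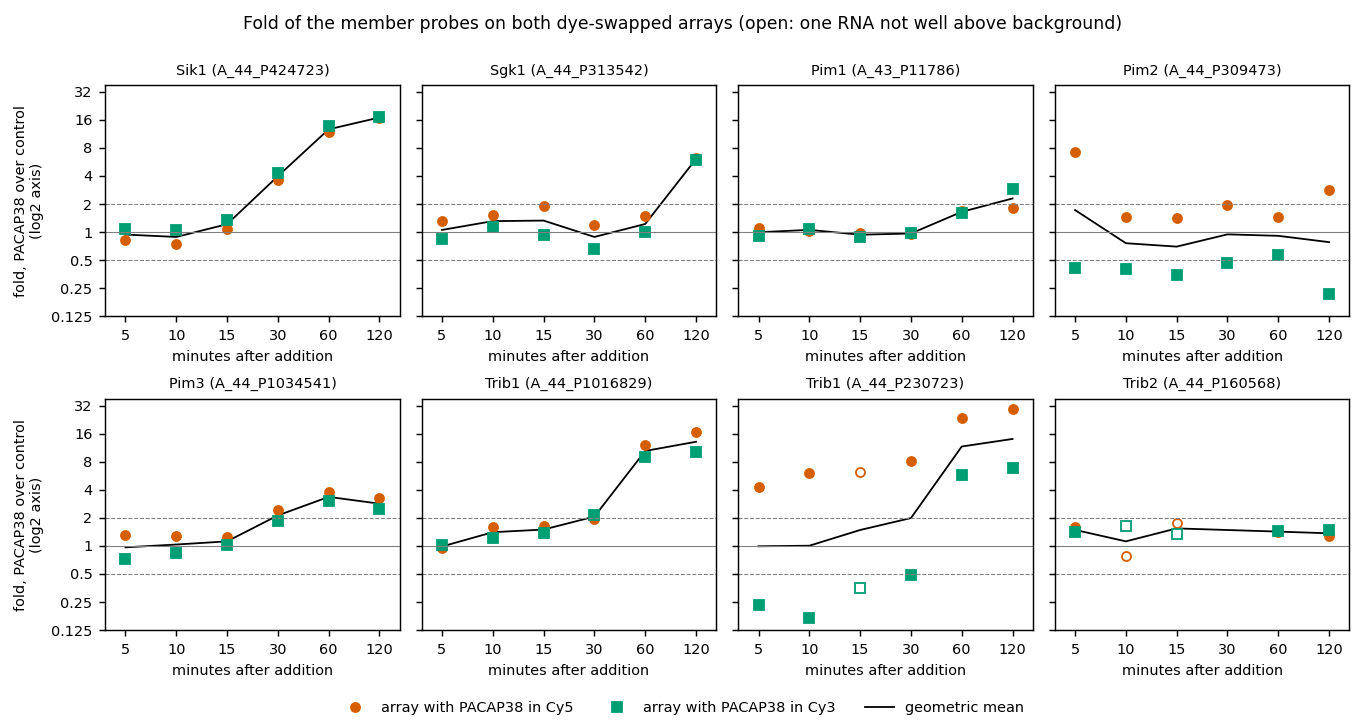
Fold of PACAP38 over control (log2 axis) for 8 of the 10 probes against the minutes after addition of PACAP38. Circles are the arrays with PACAP38 in Cy5, squares those with PACAP38 in Cy3, filled where both RNAs were well above background on 1 or more arrays of the time point and open where only one RNA was, and the line is their geometric mean. The Sik2 probe, the second Trib2 probe and time points at which both RNAs were too dim to call are left out, and dashed lines mark folds of 2 and 0.5. Sik1 reached 16.9-fold and the first Trib1 probe 13.1-fold at 120 min, whereas the arrays of Pim2 stood on opposite sides of 1 at all 6 time points and those of the second Trib1 probe up to 30 min.

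RefSeq promoter windows were matched by symbol for 7 of the 8 genes, with 3 starts for Sgk1. Trib1 had no entry. Since Sik1 is a known CREB target, the 250 bases before each start were searched on both strands for the full cAMP response element, TGACGTCA, and for the AP-1 site, which reads TGACTCA. They were also searched for the short form of the cAMP response element, TGACG, which lies within the full one. Across all 33469 promoter windows of the table, 1.59% held the full element, 18.2% the short form and 4.05% the AP-1 site. None of the 9 windows of the members held the full element or the AP-1 site. Those of Sik1 and Sik2 held 2 short forms each, and 3.98% of all windows held 2 or more, while the windows of Sgk1, Pim1, Pim2, Pim3 and Trib2 held none. The windows of both Sik genes are shown for these short forms, and that of Pim3 as a member that was also counted but holds none. They are from RefSeq on GRCr8, 5′ to 3′ on the gene's strand, with the short forms in capitals: Sik1 at chr20:9958647-9958896 (minus strand), Sik2 at chr8:60221651-60221900 (minus strand) and Pim3 at chr7:121832795-121833044 (plus strand).
Sik1: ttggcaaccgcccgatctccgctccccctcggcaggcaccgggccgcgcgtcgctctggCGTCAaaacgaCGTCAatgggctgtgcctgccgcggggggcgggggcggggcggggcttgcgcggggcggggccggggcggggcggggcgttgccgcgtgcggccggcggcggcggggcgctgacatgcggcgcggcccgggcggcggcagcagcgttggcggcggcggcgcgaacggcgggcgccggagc
Sik2: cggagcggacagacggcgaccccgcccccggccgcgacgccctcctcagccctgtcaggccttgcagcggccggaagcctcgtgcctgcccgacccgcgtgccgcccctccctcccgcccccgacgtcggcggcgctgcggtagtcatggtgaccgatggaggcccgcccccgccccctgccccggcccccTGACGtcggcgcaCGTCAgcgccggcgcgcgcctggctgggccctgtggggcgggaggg
Pim3: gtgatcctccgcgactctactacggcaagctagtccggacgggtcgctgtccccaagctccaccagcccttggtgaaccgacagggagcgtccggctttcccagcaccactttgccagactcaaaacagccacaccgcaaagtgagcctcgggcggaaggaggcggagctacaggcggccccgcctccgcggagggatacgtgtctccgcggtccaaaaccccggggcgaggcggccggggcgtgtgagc
The short forms of Sik1 began 191 and 180 bases before the start, and those of Sik2 began 59 and 46 bases before it. A match describes the letters and is not a binding site.

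Averaged over both arrays, Sik1 had the largest fold of the 8 genes at 30, 60 and 120 min among probes with both RNAs well above background on both. On the arrays with PACAP38 in Cy5 the first Trib1 probe was slightly higher than Sik1 at 60 min (12.2 against 11.7) and at 120 min (16.8 against 16.5). Its probe (A_44_P424723, ENSRNOT00000001579.6) lies at chr20:10280264-10280323 on the minus strand of rat build rn4, by the array's annotation, and both RNAs were well above background on all 12 arrays. At 5 min the fold was 0.822 on the array with PACAP38 in Cy5 and 1.08 on the array with PACAP38 in Cy3. At 10 min it was 0.747 and 1.05, and after 15 min 1.09 and 1.35. Up to 15 min the arrays therefore lay on both sides of 1 or close to it. At 30 min the arrays gave 3.64 and 4.35, after 60 min 11.7 and 13.6, and after 120 min 16.5 and 17.3. These 6 values did not overlap with those of the first 3 time points. The split was read from the same values, and the share of all probes that split so was not determined. Both arrays of a time point held the same pools.

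The channel signals, on a log2 scale after normalization between arrays, show how each RNA contributed to the Sik1 fold. With PACAP38 the mean signal of both arrays was, in the order of the 6 time points, 11.03, 10.87, 11.31, 12.84, 14.14 and 14.41. In the control it was 11.12, 11.04, 11.03, 10.85, 10.48 and 10.33. Between 5 and 120 min the PACAP38 signal thus differed by 3.39 and the control signal by -0.78, so that the control pools were also lower at the late time points. Slides were inferred from a part of the array names that several arrays share, since the sample labels give no slide. By this, the late time points lay on another slide than the early ones, and slide and time cannot be told apart in a single channel. Between the pools that shared the last slide, the signal at 120 min minus that at 60 min was 0.27 with PACAP38 and -0.15 in the control.

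**Figure D2:**
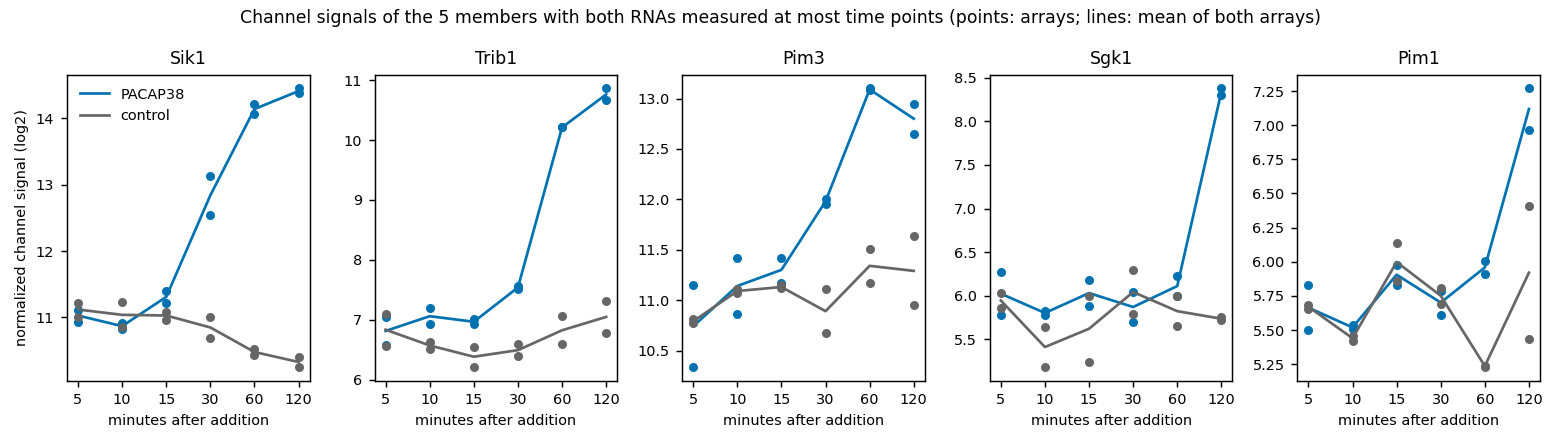
Normalized channel signals (log2) of Sik1, the first Trib1 probe, Pim3, Sgk1 and Pim1 against the minutes after addition, with PACAP38 in blue and the control in grey. Points are the 2 arrays of a time point and lines their mean, and each panel has its own axis. The Sik1 control signal went from 11.12 after 5 min to 10.33 after 120 min, while that with PACAP38 went from 11.03 to 14.41.

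The 3 named genes whose 6 folds were most like those of Sik1 were Crem, which encodes cAMP-responsive modulators, Syt4, a synaptotagmin of vesicles, and Tslp, a cytokine. They were chosen by the smallest root mean square difference in log2 fold over the 6 time points, among 917 candidate probes counted at 1 or more time points and measured at all 6. This difference was 0.18 for Crem (Pearson r = 0.997 over the 6 time points), 0.34 for Syt4 (r = 0.989) and 0.36 for Tslp (r = 0.989). Crem had folds of 3.84 after 30 min, 10.8 after 60 min and 18.1 after 120 min. The time points share slides, and no p-value is attached to these values.

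Sik2 gave no measurement. Its probe (A_43_P19119), placed at chr8:54243380-54244154 on rn4 with a span of 775 bases for 60 probe bases, was well above background in neither RNA on any of the 12 arrays. No fold is therefore given, and nothing follows for the level of Sik2 mRNA beyond this limit of the probe.

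Trib1 was the other member with folds above 10. Its first probe (A_44_P1016829, NM_023985, chr7:96448453-96448512) was well above background in both RNAs on every array except that with PACAP38 in Cy3 at 5 min, where only the control was. The folds with PACAP38 in Cy5 and in Cy3 were 0.960 and 1.01 after 5 min, 1.60 and 1.23 after 10 min, and 1.64 and 1.37 after 15 min. At 30 min they were 1.96 and 2.17, and the former was just below the fold limit. At 60 min they were 12.2 and 8.89, and after 120 min 16.8 and 10.2. The step between 30 and 60 min was thus the largest between neighbouring time points, with a fold of 2.06 before it and 10.4 after it, but these time points lay on different slides. The PACAP38 signal was 7.54 (log2) after 30 min and 10.21 after 60 min, and the control signal 6.50 and 6.83.

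The second Trib1 probe (A_44_P230723, AA964141, chr7:96448746-96448805) depended strongly on the dye. The Cy5 signal was brighter than the Cy3 signal on 10 of its 12 arrays, whichever RNA carried Cy5. Up to 30 min each RNA was well above background on no more than 1 array of a time point, and this was always the array on which it carried Cy5. At 5 min the array with PACAP38 in Cy5 gave 4.27 and the other 0.230, and after 30 min 8.07 and 0.490. Only at 60 min (23.6 and 5.75) and at 120 min (29.1 and 6.77) did both arrays show PACAP38 above the control, with the control well above background on 1 of the 2 arrays at each. Averaged over the dyes, its folds of 11.6 after 60 min and 14.0 after 120 min stood beside 10.4 and 13.1 for the first probe. After a normexp background correction with loess they were 1.72 and 1.96, against 3.76 and 4.22 for the first probe. The deviation of either array from their mean had a median of 2.04 (log2) over the 6 time points for this probe and of 0.16 for the first. Among all probes with both RNAs well above background on both arrays, its 95th percentile lay between 0.34 and 0.44, depending on the time point.

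A further probe annotated to the transcript cluster TC595938, which the array's annotation ties to both Trib1 probes, is not named Trib1 and is no member. It was looked up after the annotation of the Trib1 probes had been seen. Its folds with PACAP38 in Cy5 and in Cy3 were 10.9 and 5.92 after 60 min and 7.79 and 7.04 after 120 min, with the control well above background on 1 of 2 arrays at each. After normexp with loess its mean folds were 1.56 and 1.68. The named genes most like the first Trib1 probe were Syt4 (difference 0.29, r = 0.981), Coq10b (0.38, r = 0.983) and Vps37b (0.38, r = 0.990), over the 6 time points. None are named for the second probe, which was not measured at all 6 time points.

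**Figure D3:**
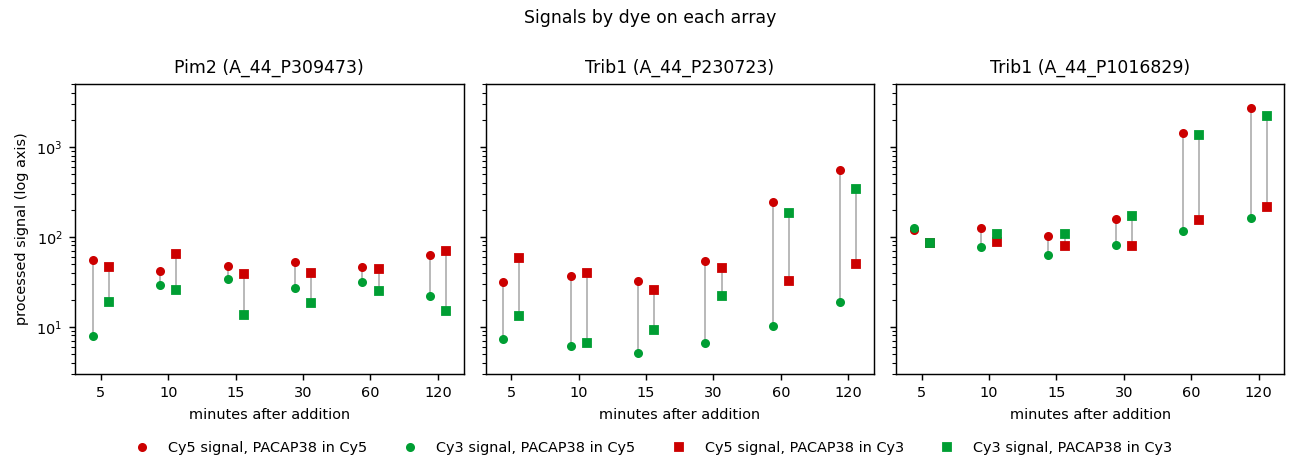
Processed signals (log axis) of Pim2 and of both Trib1 probes by dye against the minutes after addition, with Cy5 in red and Cy3 in green. Circles are arrays with PACAP38 in Cy5, squares those with PACAP38 in Cy3, and grey lines join the channels of an array. For Pim2 the red point is the upper one on 12 of 12 arrays, and for the second Trib1 probe on 10 of 12.

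Trib2, a relative of Trib1, was not counted. One probe (A_44_P160568, NM_001108015, chr6:39475109-39475168) was well above background in 10 of its 24 channels. Its folds with PACAP38 in Cy5 and in Cy3 were 1.58 and 1.40 after 5 min, 1.42 and 1.43 after 60 min, and 1.27 and 1.47 after 120 min, with the control well above background on 1 of the 2 arrays each time. At 120 min this also held for PACAP38, and each RNA was so only where it carried Cy5. At 10 and 15 min one of the RNAs was well above background, on 1 array, and the other on neither, so these folds are not read, and no fold is given for 30 min. The other (A_44_P267610, chr6:39475774-39475833) was well above background in no channel.

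Pim3 was the Pim kinase that was counted. Both RNAs were well above background on all 12 arrays for its probe (A_44_P1034541, NM_022602, chr7:127171939-127171998). The folds with PACAP38 in Cy5 and in Cy3 were 1.29 and 0.721 after 5 min, 1.27 and 0.843 after 10 min, and 1.24 and 1.01 after 15 min. They were 2.42 and 1.86 after 30 min, 3.76 and 3.0 after 60 min, and 3.25 and 2.48 after 120 min. The array with PACAP38 in Cy5 gave the higher fold at every time point. The values from 30 min on did not overlap with the earlier ones. That split was read from the same values, and the share of all probes that split so was not determined. The mean fold was 3.36 after 60 min and 2.84 after 120 min, and it was lower at 120 min in both dye orientations, but with 1 replicate at each time point the difference could not be tested. The genes most like Pim3 were Plk3, a Polo-like kinase (difference 0.18, r = 0.970), Cpt1b, a carnitine palmitoyltransferase (0.20, r = 0.967), and Cyp24a1, a vitamin D hydroxylase (0.20, r = 0.982), over the 6 time points.

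Pim1 came close to the limits. Its probe (A_43_P11786, NM_017034, chr20:7821739-7821798) was well above background in both RNAs on all arrays, with folds between 0.895 and 1.11 on single arrays up to 30 min. At 60 min the array with PACAP38 in Cy5 gave 1.70 and the other 1.60. At 120 min they were 1.82 and 2.89, so only the latter array passed the fold limit. All 4 late values lay above all 8 early ones. This split was read from the same values, and the share of all probes that split so was not determined. The late time points also lay on a slide of their own. After normexp with loess the folds were 1.115 at 60 min and 1.256 at 120 min. The control signal also varied, from 5.24 (log2) after 60 min to 6.00 after 15 min.

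Pim2 was brighter in Cy5 whichever RNA carried it. The Cy5 signal of its probe (A_44_P309473, NM_001172103, chrX:26656067-26656940, a span of 874 bases) was the brighter on all 12 arrays. PACAP38 RNA was well above background on no array where it carried Cy3. At 5 min the array with PACAP38 in Cy5 gave a fold of 7.16 and the other 0.415, and after 120 min 2.81 and 0.217. At the time points between them it ran from 1.40 to 1.93 on the former arrays and from 0.348 to 0.572 on the latter. The deviation of either array from their mean had a median of 1.02 (log2). PACAP38 and control could not be ordered for Pim2 at any time point.

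Sgk1 was counted at 120 min alone. Both RNAs were well above background on all 12 arrays for its probe (A_44_P313542, NM_019232, chr1:23501718-23501777). The folds with PACAP38 in Cy5 and in Cy3 were 1.32 and 0.841 after 5 min, 1.51 and 1.14 after 10 min, and 1.92 and 0.921 after 15 min. They were 1.19 and 0.663 after 30 min and 1.49 and 1.00 after 60 min. Up to 60 min the array with PACAP38 in Cy5 gave the higher fold at each time point, and both arrays were on the same side of 1 at 10 and 60 min only, with a fold of 1.003 on one of them at 60 min. At 120 min the arrays gave 6.18 and 5.99. The PACAP38 signal was 6.11 (log2) after 60 min and 8.34 after 120 min on the same slide, while the control signal was 5.82 and 5.73.

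The sizes of several folds depended on how the background was treated. When the raw scanner signals were corrected by normexp and normalized by loess, Sik1 had folds of 11.2 after 60 min and 13.6 after 120 min, and Pim3 of 3.14 and 2.62. The first Trib1 probe had 3.76 after 60 min and 4.22 after 120 min, the second 1.72 and 1.96, and Sgk1 1.95 after 120 min, when Pim1 had 1.26. The direction was the same in each, but the Sgk1 probe and the second Trib1 probe were then no longer at 2. At 120 min 3 of the 10 probes were counted in this way, against 0.717% of all probes. Normexp adds an offset of 50 to each signal, which draws the folds of dim probes toward 1. How far this offset accounts for the lower folds was not tested.

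**Figure D4:**
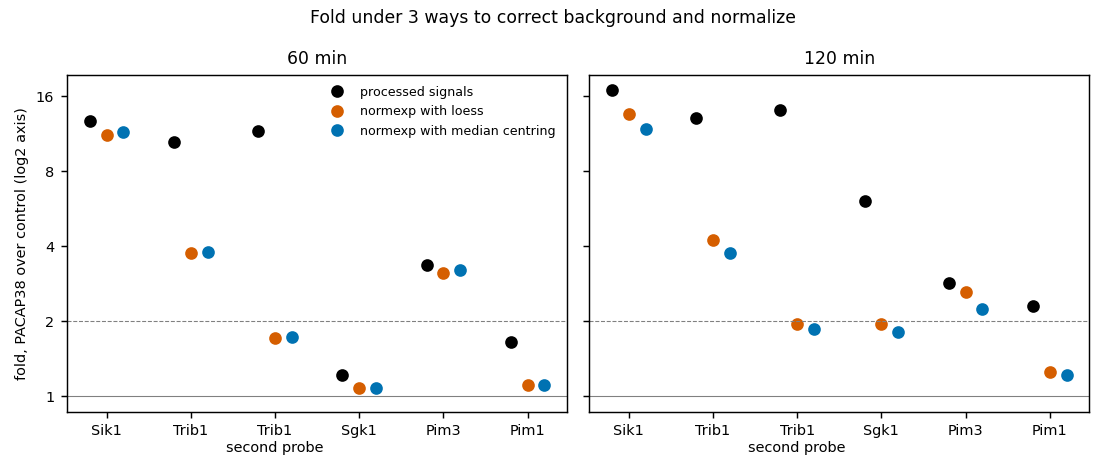
Fold of PACAP38 over control (log2 axis) at 60 and 120 min for the 6 probes of Sik1, Trib1, Sgk1, Pim3 and Pim1, from the processed signals (black), after normexp with loess (orange) and after normexp with median centring (blue). The dashed line is a fold of 2. Sik1 changed from 16.9 to 13.6 after 120 min between the first and the second, and Sgk1 from 6.09 to 1.95.

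The course over time could be tested with the 6 time points as samples. The slope of the log2 fold on log2 time, in log2 units per doubling of time, was fitted by limma across 20265 probes with signal, 8 of them members. A rising slope passed an adjusted p of 0.05 for 0.523% of the probes fitted, and Sik1 was the 1 member among them. Its slope was 1.08 ± 0.131 (SE, adjusted p = 0.0436 by limma). The slopes of the other counted members were 0.89 ± 0.128 for the first Trib1 probe (adjusted p = 0.0513), 0.96 ± 0.147 for the second (0.0564), 0.44 ± 0.073 for Pim3 (0.061) and 0.39 ± 0.183 for Sgk1 (0.221). Pim1 had 0.26 ± 0.0726 (0.0969), and Pim2 and Trib2 had slopes of -0.14 and -0.02, with adjusted p of 0.4 and 0.914. Their direction is not settled, since without 5 min both slopes were 0.05, and with slide as a block they were -0.32 and -0.52. The fits of the second Trib1 probe and of Trib2 include time points at which one or both RNAs were not well above background on either array. The Sik1 call was not firm. Its adjusted p was 0.0549 after normexp with loess, between 0.0298 and 0.177 when 1 time point was left out, and under 0.05 only without 5 min among these. With slide as a block the Sik1 slope was 0.68 and its adjusted p 0.895. The slopes of the other members moved as well. After normexp with loess they were 0.52 for the first Trib1 probe, 0.23 for the second, 0.16 for Sgk1 and 0.07 for Pim1. With slide as a block they were 0.43 and 0.24 for the Trib1 probes, 0.26 for Pim3 and 0.68 for Sgk1. The slope of Sgk1 was -0.01 without 120 min. Within the slides, the Sik1 log2 fold differed by -0.09 between 5 and 10 min, by 1.71 between 15 and 30 min and by 0.42 between 60 and 120 min. The mean log2 fold over all 6 time points differed from 0 for 0% of the probes in the same kind of fit, members included, and for 1851 at an unadjusted p below 0.05. For Sik1 that mean was 1.63 ± 0.666 (SE, adjusted p = 0.531 by limma).

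**Figure D5:**
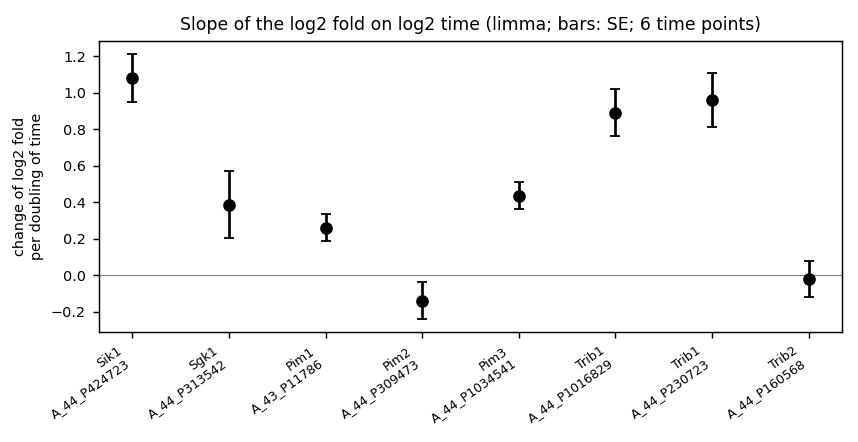
Slope of the log2 fold on log2 time for the 8 fitted probes, in log2 units per doubling of time, with the SE from limma over 6 time points. Sik1 has the highest slope (1.08) and is the one member whose adjusted p (0.0436) is below 0.05.

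Beside the members, 65 genes of their pathways were followed, of which 64 had a probe and 54 a measurement at 1 or more time points. Of their 105 probes, 5 (4.76%) were counted as higher at 1 or more time points, against 2.09% of all probes, and 2 (1.90%) as lower, against 1.81% of all probes. Of the 13 SIK pathway genes (Stk11 and its partners, the Crtc coactivators, class IIa Hdac genes and Sik3), 1 was counted as higher and none as lower. It was Sik3, the third salt-inducible kinase, with 1 of its 3 probes at 5.50 and 2.95 on both arrays at 120 min and 1.69 after normexp with loess. Of the 11 other AMPK-related kinases with a probe, none was counted. The median log2 fold of this list at 120 min was -0.28, against -0.03 over all measured probes.

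Among the 18 genes around Sgk1, 1 was counted as higher and 1 as lower, both at 120 min. Ndrg1, whose protein is a substrate of Sgk1, had folds of 2.29 and 2.30 for 1 of its 2 probes, and 1.76 after normexp with loess. Nr3c1, the glucocorticoid receptor, had 0.456 and 0.365 for 1 of its 3 probes, and 0.667 after normexp with loess. Among the 13 regulators and substrates of Pim kinases, Cdkn1a, a cyclin-dependent kinase inhibitor, was counted as higher at 120 min with both of its probes, with mean folds of 2.81 and 2.91. After normexp with loess these were 1.61 and 2.92, so the first probe was no longer at 2. Stat5a, a factor that drives Pim transcription in blood cells, was counted as lower at 120 min, with 0.406 and 0.426, and 0.504 after normexp with loess. Of the 9 partners of Tribbles proteins, Cebpb, a C/EBP factor, was counted as higher at 3 time points. Its folds with PACAP38 in Cy5 and in Cy3 were 2.86 and 2.64 after 30 min, 4.85 and 4.92 after 60 min, and 6.28 and 4.87 after 120 min. After normexp with loess its mean folds were 1.98, 3.73 and 3.70. Trib3 was not counted. The median log2 fold of the Tribbles partners at 120 min was 0.33, that of the SIK list -0.05, that of the SGK list -0.23 and that of the Pim list 0.01.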

How the data were processed

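RNA of PC12 cells was measured on 12 Agilent whole rat genome arrays with 2 colours, 2 dye-swapped arrays for each of 6 time points. The authors extracted the signals with Feature Extraction (12.0.3.1 in the file headers, 11.0.1.1 in the submitters' processing notes). The deposited processed intensities are background-subtracted and LOWESS-normalized between the dyes within an array. The deposited log10 ratios, also given in the table of all arrays, are of Cy5 over Cy3 and were not turned for the dye swap. The deposited p-value of a spot comes from the authors' software and covers that spot alone. Deposited flags mark spots well above background.

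From the processed intensities, ratios of PACAP38 to control were turned by dye, and the spots of a probe were averaged, without the 1639 control spots and without outlier flags, which no member spot carried. Channel signals were normalized between arrays with Aquantile after loess. Slopes and means of the dye-averaged log2 folds were fitted with limma 3.58.1 in R 4.3.3, with Benjamini-Hochberg adjustment over the 20265 probes that had, at 1 time point or more, a channel well above background on each of its arrays. The fits were tested on simulated data. Other steps used Python 3.11.15 with pandas 2.3.3 and numpy 2.4.6, and figures matplotlib 3.10.9.

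All probes of the 8 symbols are named, pathway genes where 1 or more probes were counted, and for each member counted at 2 or more time points the 3 genes with the most similar folds, except for the second Trib1 probe, left out after its values were seen because it was not measured at all 6. Members and lists were chosen with earlier results of these data known. Alternatives were other background and normalization settings, 1 array alone, other limits on fold and p-value, other filters, slide as a block, time in minutes and leaving out time points. Arrays give no count of molecules, and the number of arrays limits the precision. Whether a probe lies in a coding or another exon, and the proteome measurements, were not analysed here.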

Additional observations from a re-analysis of the deposited data

How the results depend on the processing

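The fold directions of all 10 counted values were kept under every setting of background, normalization and dye tried. No paired analysis was possible because replicate numbers only name the dye orientation of the same pools, so they could add nothing to the pairing of PACAP38 and control on each array, which every fold already uses. Their sizes were lower after normexp with loess than from the processed signals, and those that moved by more than the SD of the 2 arrays (log2 scale) were 3.76 and 4.22 for the first Trib1 probe at 60 and 120 min, 1.72 and 1.96 for the second, 1.95 for Sgk1 at 120 min, and 3.42, 11.2 and 13.6 for Sik1 at 30, 60 and 120 min. With median centring in place of loess they were 3.80 and 3.75 for the first Trib1 probe, 1.73 and 1.86 for the second, 1.82 for Sgk1, 2.24 for Pim3 at 120 min, and 3.27 and 11.8 for Sik1 at 30 and 120 min.

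The number of member probes counted at 30 min, 1 as reported, was 3 with PACAP38 in Cy5 alone (0.746% of all probes), 2 with PACAP38 in Cy3 alone (0.902%), 2 after normexp with loess (0.122%) and 3 with a fold limit of 1.5 (0.407%). At 60 min it was 2 after normexp with median centring (0.266%). At 120 min it was 3 after normexp with loess (0.717%) and 2 with median centring (0.437%). With PACAP38 in Cy5 alone it was 1 at 5, 10 and 15 min each (0.941%, 1.04% and 0.953%). For Pim2 at 5 min and the second Trib1 probe at 10, 15 and 30 min the other array pointed the opposite way.

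The count of probes with a called slope, 147 as reported, was 27 after normexp with loess, 1 with median centring, 0 without the filter on dim probes, 542 with signal required at every time point, 3 with PACAP38 in Cy5 alone, 29 with PACAP38 in Cy3 alone, 0 with slide as a block and 5337 on time in minutes. It was 244 when the same RNA had to be well above background on both arrays, a setting chosen after seeing the data. Without single time points it ran from 0 to 153. The Sik1 slope lost its call after normexp with loess (0.99), with median centring (0.93), without the filter (1.08), with PACAP38 in Cy5 alone (1.12) or in Cy3 alone (1.04) and with slide as a block (0.68), and ran from 1.01 to 1.30 without single time points. With signal required at every time point, the slopes of the first Trib1 probe and Pim3 also had an adjusted p below 0.05 by limma (0.0331 and 0.0399). Fewer probes were tested there, and 309 of 15880 were called as rising. With the same RNA required on both arrays so had those of both Trib1 probes (0.0438 and 0.048), where 173 of 18720 probes were called as rising. On time in minutes so had those of both Trib1 probes (0.0105 and 0.0117), Sgk1 (0.0294) and Pim1 (0.00715). In that setting 2071 of 20265 probes were called as rising, so such a call is common among all probes. The count of probes with a called mean, 0 as reported, was 2310 with PACAP38 in Cy5 alone and 3535 with PACAP38 in Cy3 alone, where dye and treatment cannot be told apart, and 0 to 15 without single time points. Signal over background left Sik2 and 1 Trib2 probe without a measurement.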
